A study of Sus scrofa with 36 samples.

Results

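The miR-29 and miR-30 families were examined in pig heart tissue between postnatal day 1 (P1) and postnatal day 28 (P28). The members were all mature microRNAs (miRNAs) of the deposited small RNA table whose names begin with ssc-miR-29a, 29b or 29c or with ssc-miR-30a to 30e, which gave 13 of the 411 mature miRNAs in the table. They comprised 3 miR-29 members, 5 miR-30 members from the 5p arm of their hairpin (30a-5p, 30b-5p, 30c-5p, 30d and 30e-5p) and 5 from the 3p arm (30a-3p, 30b-3p, 30c-1-3p, 30c-3p and 30e-3p). In the table the members took 15 entries, because miR-29b and miR-30c-5p are each made from a pair of precursor hairpins, and together they came from 10 hairpins, 4 of miR-29 and 6 of miR-30. All 13 passed the filter on low counts.

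The study followed the hearts of domestic Yorkshire pigs at P1, P3, P7 and P28, and the libraries used here were the 12 sequenced by CD Genomics, from 3 pigs at each age. All animals were fed normally and none was given a treatment or carried an allele named in the labels. Age was the variable compared. The study used males and females at every age, but the sex of these 12 pigs is not given in the sources used here, so its part in the differences was not tested. Heart tissue was sequenced in bulk, so fewer cells of a type and less RNA per cell cannot be told apart. Each pig is named here by the number in the column names, pig 4, 5 or 6 of its age, and the same number links the small RNA and gene tables.

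An miRNA is cut from a hairpin precursor, which can release one strand from its 5p arm and another from its 3p arm, and it lowers the translation and stability of mRNAs that match its seed, the bases near its 5′ end. The miR-29 members share one seed and are known as repressors of fibrillar collagens, fibrillins and other matrix genes in fibroblasts, and their loss after injury is known to go with scar formation in the heart. The miR-30 5p members share another seed and are known to be abundant in cardiomyocytes and to repress the profibrotic growth factor CCN2, while the 3p strands carry other seeds and are usually the lesser product of the hairpin. Both families are often called antifibrotic for these reasons.

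Levels are given as CPM, counts on a common library total after TMM, edgeR's correction for library composition, and a call was an adjusted p under 0.05 in edgeR's quasi-likelihood test over all 257 mature miRNAs that passed the filter. The small RNA libraries held between 2921130 and 7917255 counts and the gene libraries between 8887176 and 14883849. The muscle miRNA miR-1 took between 30.7 and 44.9% of the miRNA counts, most at P28 (41.2, 43.9 and 44.9%), and the miRNA known best from liver, miR-122, took at most 0.00121%. All 8 cardiomyocyte marker genes that the gene table held were detected. The P3 library of pig 5 stood apart in several genes of matrix and vessel wall, with 2246 CPM of COL5A1 against 505 and 844 CPM in the other P3 pigs and 590 CPM of NOTCH3 against 154 and 248 CPM, and it also had the highest miR-29a and miR-29c levels of the P3 group.

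The miR-30 5p strands were among the most abundant miRNAs of the heart, whereas the miR-29 members were scarce. By mean share of miRNA counts over the 12 libraries, miR-30d ranked 3 of 411 at 4.49%, miR-30e-5p ranked 6 at 3.28% and miR-30a-5p ranked 9 at 2.56%. The next members were miR-30c-5p at rank 23 and miR-30b-5p at rank 36, and the most abundant 3p strand, miR-30e-3p, followed at rank 37. Among the miR-29 members miR-29a ranked 146, miR-29c 209 and miR-29b 219. Together the 5p strands of miR-30 made up between 8.60 and 13.0% of all miRNA counts, and the miR-29 family between 0.00256 and 0.0137%. How evenly the library chemistry captures different strands was not tested, so shares describe these libraries.

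From P1 to P28, 6 of the 13 members rose and none fell: all 3 miR-29 members, and miR-30b-5p, miR-30c-5p and miR-30e-5p. DESeq2 called 5, of which 4 were higher, the miR-29 members and miR-30b-5p, and 1 was lower, miR-30c-3p. Across all 257 mature miRNAs tested edgeR called 37.7% in this comparison, 19.1% as higher at P28. The share that DESeq2 called was not worked out. Medians of the log2 fold change were 1.81 for the miR-29 members, 0.34 for the miR-30 5p strands and 0.06 for the 3p strands, against -0.02 for all miRNAs. The P1 and P28 libraries did not overlap for 7 members that were higher at P28, miR-30b-3p among them by less than 0.01 CPM, and 1 that was lower, beside a background of 26.5% and 26.1% of all miRNAs. Over all 4 ages together 6 members were called, the 3 miR-29 members, miR-30b-5p, miR-30e-5p and miR-30e-3p, beside 49.0% of all miRNAs.

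miR-29a, the most abundant member of its family, stood at 34.0, 31.2 and 25.9 CPM in the P1 pigs and at 121, 114 and 83.2 CPM in the P28 pigs. In between it measured 26.9, 65.1 and 24.4 CPM at P3 and 21.6, 14.6 and 28.0 CPM at P7. The P28 pigs lay above every younger pig, while P1, P3 and P7 overlapped. The rise from P1 to P28 was 1.81 ± 0.34 on the log2 scale (SE, adjusted p = 7.53e-04), and that from P7 to P28 was 2.32 ± 0.35 (adjusted p = 2.53e-04).

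miR-29b was the scarcest miR-29 member and had the largest rise of the 13 from P1 to P28. Its level was 1.90, 2.91 and 2.22 CPM at P1, 3.46, 4.86 and 4.94 CPM at P3, 2.44, 3.64 and 5.04 CPM at P7, and 15.5, 16.0 and 11.4 CPM at P28. These levels rested on between 6 and 27 counts per library before P28 and on 58, 114 and 31 counts at P28. All P28 pigs lay above all others, and the P3 pigs lay above the P1 pigs without overlap. The log2 rise was 2.58 ± 0.32 from P1 to P28 (adjusted p = 2.81e-05) and 1.99 ± 0.30 from P7 to P28 (adjusted p = 2.53e-04).

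miR-29c was also highest in mean at P28, but unlike miR-29b its P7 mean lay below its P1 mean. Its 3 pigs measured 6.03, 6.45 and 3.71 CPM at P1, 7.50, 13.7 and 5.56 CPM at P3, 4.87, 4.51 and 4.76 CPM at P7, and 17.9, 12.2 and 19.1 CPM at P28. Pig 5 at P3, at 13.7 CPM, was the only younger pig above the lowest P28 pig. The log2 rise was 1.58 ± 0.33 from P1 to P28 (adjusted p = 0.00203) and 1.77 ± 0.33 from P7 to P28 (adjusted p = 0.00131).

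Summed over the family, miR-29 stood at 38.1 ± 5.45 CPM at P1 (SD, n = 3), 52.1 ± 27.3 at P3, 29.8 ± 7.58 at P7 and 137 ± 20.8 at P28. Without pig 5 the P3 mean was 36.4 CPM. miR-29a made up between 64.1 and 81.4% of the family in every library. The ratio of miR-29a to miR-29b fell in value from 17.8, 10.7 and 11.7 at P1 to 7.83, 7.10 and 7.29 at P28, with no overlap between these ages, whereas the ratio of miR-29a to miR-29c overlapped between P1 (4.84 to 7.00) and P28 (4.35 to 9.30). The miR-29b ratio at P1 rests on 6 to 14 counts of miR-29b per library. In the RefSeq annotation the hairpins lie in neighbouring pairs, MIR29B-1 beside MIR29A and MIR29B-2 beside MIR29C. The table split reads shared by several precursors evenly between them, so these data do not tell which miR-29b hairpin gave the rise.

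**Figure D1:**
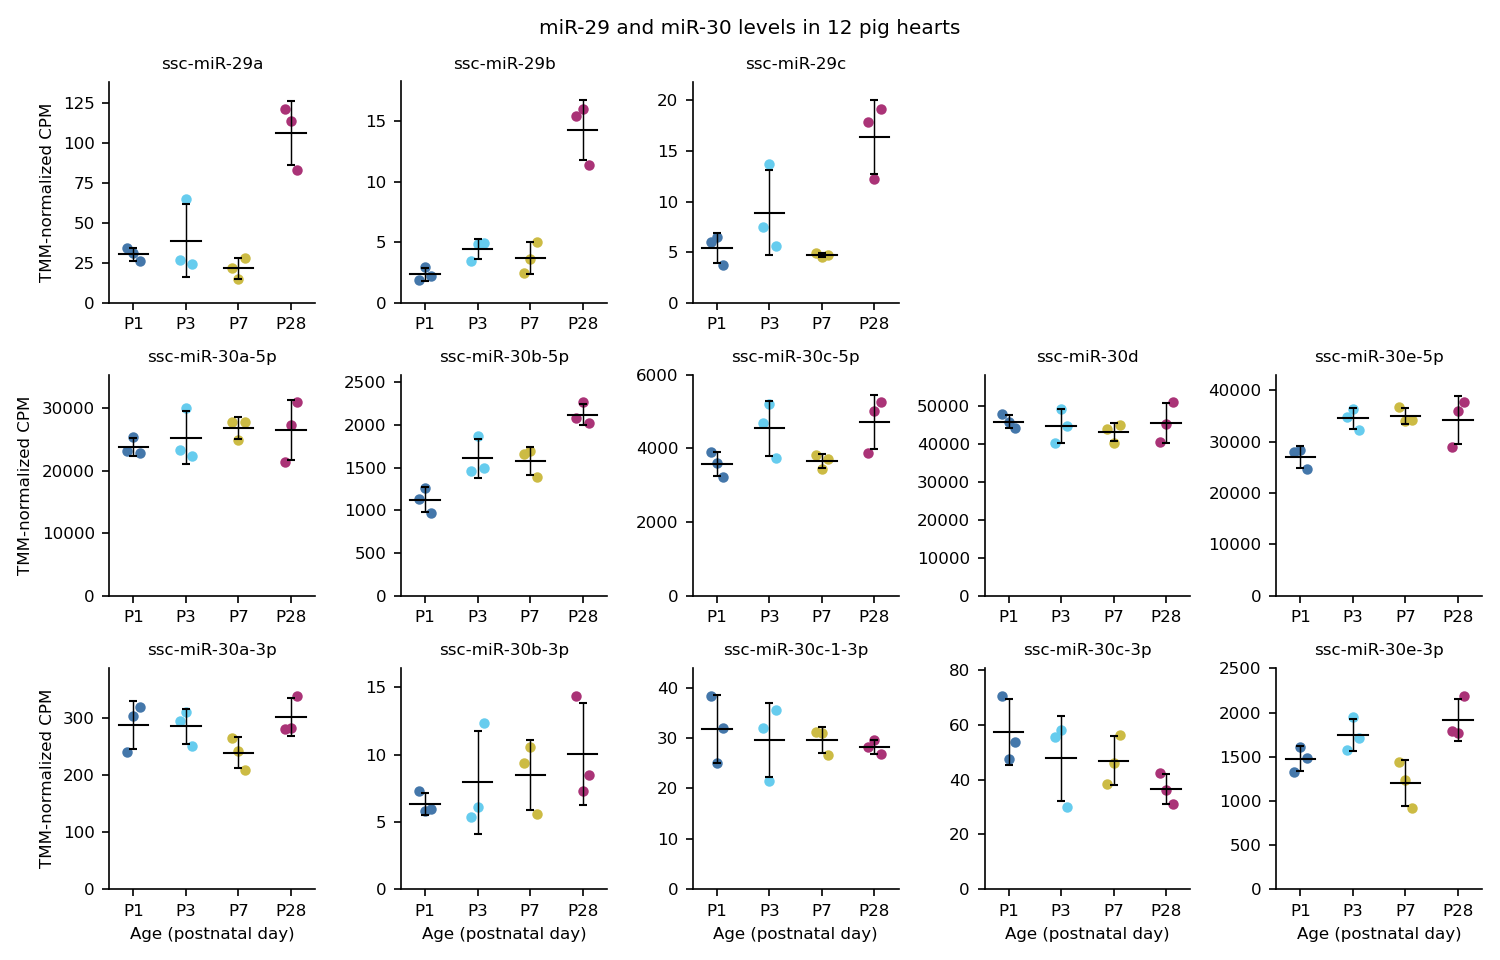
TMM-normalized CPM (vertical axes, each from 0) of the 13 members by age (horizontal axes), with 1 point per pig, a line at the mean and bars of 1 SD over the 3 pigs. The 3 miR-29 panels rise at P28, miR-30b-5p is lowest at P1 and highest at P28, and miR-30d lies between 40321 and 50948 CPM at all ages.

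Among the 5p strands of miR-30, miR-30b-5p had the clearest change. It measured 1138, 1263 and 974 CPM at P1, 1455, 1873 and 1491 CPM at P3, 1662, 1688 and 1389 CPM at P7, and 2077, 2262 and 2020.1 CPM at P28. The P1 pigs lay below all others and the P28 pigs above all others, with P3 and P7 overlapping. From P1 to P28 its log2 rise was 0.91 ± 0.15 (adjusted p = 2.41e-04). From P1 to P7 it was 0.49 ± 0.15 (adjusted p = 0.0240), a call that was lost without P1 pig 4, P1 pig 6, P7 pig 4 or P7 pig 5 (adjusted p from 0.0823 to 0.117). From P7 to P28 it was 0.42 ± 0.15 (adjusted p = 0.0407), which was lost without P1 pig 4 or 6 or without any one P7 or P28 pig (adjusted p from 0.0517 to 0.188), and on plain library totals without TMM, where the estimate was 0.06 (adjusted p = 0.744).

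miR-30e-5p was lowest at P1 and level in value from P3 on. Its pigs measured 27974, 28428 and 24652 CPM at P1, 34807, 36378 and 32322 CPM at P3, 36669, 33977 and 34182 CPM at P7, and 28866, 35993 and 37628 CPM at P28. The P1 pigs lay below all 9 older pigs, which overlapped among themselves. The log2 rise was 0.37 ± 0.12 from P1 to P7 (adjusted p = 0.0316) and 0.34 ± 0.12 from P1 to P28 (adjusted p = 0.0354). The former was lost without any one P1 or P7 pig (adjusted p from 0.0541 to 0.151), and the latter without any one P1 pig, P28 pig 5 or P28 pig 6 (adjusted p from 0.0537 to 0.208). DESeq2 called neither (adjusted p = 0.0595 and 0.0631).

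miR-30c-5p, which 2 hairpins encode, was called from P1 to P28 close to the threshold (log2 rise 0.40 ± 0.15, adjusted p = 0.0483), with P1 at 3906, 3593 and 3239.7 CPM, P3 at 4689, 5220.0 and 3744 CPM, P7 at 3830.3, 3437 and 3709.7 CPM, and P28 at 3886, 5024 and 5252 CPM. P1 overlapped with every later age, while the P7 pigs lay below the P28 pigs without overlap. The P1 to P28 call was lost without any one P1 pig, P3 pig 4, P7 pig 4 or 5, or P28 pig 5 or 6 (adjusted p from 0.0556 to 0.213), and with DESeq2 (adjusted p = 0.0594) or limma voom (adjusted p = 0.0530).

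The other 5p strands, miR-30d and miR-30a-5p, were not called in any comparison with TMM, though both were called lower from P7 to P28 on plain library totals. miR-30d, the most abundant member, measured 47764, 45671 and 44259 CPM at P1 and 40461, 45192 and 50948 CPM at P28, with all 12 pigs between 40321 and 50948 CPM, and its P1 to P28 log2 difference was -0.01 with a 95% interval from -0.26 to 0.23. miR-30a-5p measured 23126, 25324 and 22834 CPM at P1, 23237, 30062 and 22374 CPM at P3, 27797, 24799 and 27823 CPM at P7, and 21336, 27252 and 30882 CPM at P28, and its difference was 0.16 with an interval from -0.15 to 0.47. The summed 5p strands stood at 101382 ± 4700 CPM at P1 (SD, n = 3) and 113026 ± 15232 CPM at P28, which overlapped. The small calls within this group depended on the scaling. Without TMM, on plain library totals, the median log2 change of all miRNAs between P1 and P28 was -0.23, and miR-30c-5p and miR-30e-5p were no longer called (adjusted p = 0.291 and 0.365), while the miR-29 members and miR-30b-5p were, as was miR-30c-3p as lower, beside 12.8% of all miRNAs called higher and 28.8% called lower.

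Ratios within a library need no scaling between libraries. miR-30b-5p over miR-30d was 0.0238, 0.0276 and 0.0220 at P1, between 0.0310 and 0.0419 at P3 and P7, and between 0.0396 and 0.0513 at P28. miR-30e-5p over miR-30d was between 0.557 and 0.622 at P1 and between 0.713 and 0.863 at every later age. In both ratios the P1 pigs lay apart from all older pigs. Accordingly the share of miR-30d in the summed 5p strands was 43.8 to 46.1% at P1 and 38.6 to 42.7% later. RefSeq places the hairpins of miR-30d and miR-30b side by side, so the neighbours of this pair had unequal courses in the mature strands. The summed 5p strands of miR-30 outnumbered the miR-29 family by 2480 to 3010 counts per count at P1, and by 626, 816 and 1115 at P28.

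**Figure D2:**
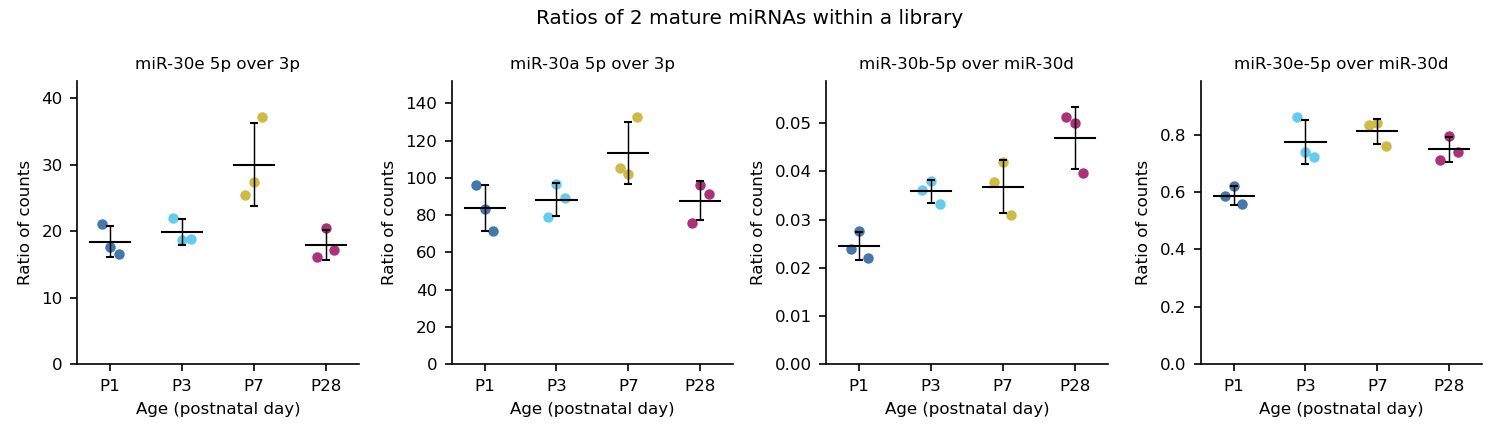
Ratios of the counts of 2 mature miRNAs within each library (vertical axes, from 0) by age, 1 point per pig, with the mean and 1 SD of 3 pigs. The 5p over 3p ratio of miR-30e is highest at P7 (25.4 to 37.2), and both ratios to miR-30d are lowest at P1.

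The 3p strands were lower than their 5p partners in every library. The main edgeR fit, over all 12 libraries with TMM, called none of them between P1 and P28. miR-30e-3p was lowest at P7, which its 5p partner was not. It measured 1332, 1612 and 1483 CPM at P1, 1580, 1945 and 1716 CPM at P3, 1443, 1240 and 919 CPM at P7, and 1794, 1765 and 2192 CPM at P28. All P7 pigs lay below all P3 and P28 pigs and overlapped with P1. Its log2 fold change was -0.54 ± 0.17 from P3 to P7 (adjusted p = 0.0426) and 0.67 ± 0.17 from P7 to P28 (adjusted p = 0.00744). The first call was lost without any one P1 or P28 pig, P3 pig 4 or 5, or P7 pig 5 or 6 (adjusted p from 0.0544 to 0.159), and the second without P28 pig 6 (0.53, adjusted p = 0.0760) and without TMM (0.30, adjusted p = 0.163). Between P1 and P28 its estimate was 0.38 ± 0.17, without overlap, and missed the threshold (adjusted p = 0.0898). edgeR with TMM called this rise with only the 2 ages in the fit (adjusted p = 0.0445) or without P7 pig 6 (adjusted p = 0.0397).

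With the 5p strand at 33977 to 36669 CPM at P7, the 5p over 3p ratio of miR-30e was 25.4, 27.4 and 37.2 at P7, against 16.1 to 22.0 at the other ages. The 5p over 3p ratio of miR-30a was likewise highest at P7, at 102 to 133 in the P7 pigs and 71.6 to 96.6 in all others, although neither strand of miR-30a was called in any comparison with TMM scaling in edgeR. For miR-30b the 5p over 3p ratio ranged from 121 to 310 and overlapped between all ages, on 20 to 61 counts of miR-30b-3p per library.

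The remaining 3p strands were scarce. miR-30c-3p, from the hairpin mir-30c-2, stood at 70.8, 47.5 and 53.9 CPM at P1 and 42.4, 36.4 and 31.3 CPM at P28, without overlap, and its log2 fold change of -0.64 ± 0.26 missed the threshold (adjusted p = 0.0615). DESeq2 called it at an adjusted p of 0.0344, and edgeR on plain library totals at 0.0155. edgeR with TMM called it with only the 2 ages in the fit (adjusted p = 0.0352) and with precursor entries kept apart (adjusted p = 0.0378). It was also called without P3 pig 6 (adjusted p = 0.0190) or P28 pig 4 (adjusted p = 0.0439). miR-30c-1-3p, from the hairpin mir-30c-1, lay between 21.4 and 38.4 CPM throughout, with a P1 to P28 difference of -0.16 and a 95% interval from -0.63 to 0.31. miR-30b-3p lay between 5.83 and 7.30 CPM at P1 and between 7.30 and 14.4 CPM at P28, where the highest P1 pig and the lowest P28 pig were level in value to 3 digits, and it was not called (log2 fold change 0.66 ± 0.37, adjusted p = 0.182).

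Between P1 and P3 none of the 13 members was called in the main edgeR fit, against a background of 4.28% of all miRNAs. At an unadjusted p under 0.05 there were 5 such members, miR-29b, miR-29c, miR-30b-5p, miR-30c-5p and miR-30e-5p, all with higher estimates at P3, beside 16.7% of all miRNAs. Without pig 5 at P3 they were miR-30b-5p and miR-30e-5p, beside 16.7% of all miRNAs. DESeq2 called 1 of the 13, miR-30b-5p (log2 0.52, adjusted p = 0.0302). edgeR also called miR-30b-5p with the pig number as a replicate block (adjusted p = 0.0347), with precursor entries kept apart (adjusted p = 0.0491) and without P7 pig 6 (adjusted p = 0.0491). On plain library totals it called miR-30b-5p and miR-30e-5p (adjusted p = 0.0322 for each). The shares of all miRNAs called in these alternatives were not worked out. Between P1 and P7 the 2 called members were miR-30b-5p and miR-30e-5p, beside 26.5% of all miRNAs called and 13.6% called as higher. Between P3 and P7 the only call was the lower miR-30e-3p, beside 14.0% of all miRNAs called and 7.78% called as lower. Without pig 5 at P3, it was no longer called (adjusted p = 0.159). Without pig 6 at P3 there were 4 lower calls, miR-30e-3p, miR-29a (adjusted p = 0.0197), miR-29c (adjusted p = 0.0169) and miR-30c-5p (adjusted p = 0.0441), and DESeq2 called miR-29a beside miR-30e-3p (-0.90, adjusted p = 0.0414). The share of all miRNAs called without that pig or with DESeq2 was not worked out. Between P7 and P28 the 5 called members were the miR-29 members, miR-30b-5p and miR-30e-3p, all higher at P28, beside 31.1% of all miRNAs and 14.0% as higher. On plain library totals the split was 3 higher and 4 lower, beside 5.06% of all miRNAs called higher and 32.3% called lower, with the median miRNA at -0.38. The 3 higher were the miR-29 members, and the 4 lower were miR-30d (-0.29, adjusted p = 0.0328), miR-30a-5p (-0.39, adjusted p = 0.0209), miR-30e-5p (-0.40, adjusted p = 0.0105) and miR-30c-3p (-0.69, adjusted p = 0.0437). The miR-29 members were called in both comparisons with P28 under every alternative that tested them, the stricter filter having left out miR-29b and miR-29c. Their levels at P1 and P7 overlapped, and the log2 differences ranged from -0.52 to 0.59 with none called. The comparisons from P1 share the same P1 libraries.

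By a looser rule, with p not above 0.05 before adjustment and a log2 change beyond 0.5 either way, 3 members were called from P1 to P3 (13.2% of all miRNAs), 0 from P1 to P7 (29.2%), 5 from P1 to P28 (37.7%), 3 from P3 to P7 (23.7%) and 4 from P7 to P28 (32.3%). From P1 to P28 the 5 comprised the miR-29 members and miR-30b-5p as higher and miR-30c-3p as lower. The 3 members from P3 to P7, miR-29a, miR-29c and miR-30e-3p, all had lower estimates at P7. Without pig 5 at P3 none of the 13 passed this rule from P1 to P3 or from P3 to P7, beside 12.8% and 18.7% of all miRNAs, and 0 members passed an adjusted p of 0.05 either. The P3 to P7 estimate then went from -0.88 to -0.28 for miR-29a and from -0.95 to -0.49 for miR-29c, and the P1 to P3 estimate of miR-29a from 0.37 to -0.24.

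**Figure D3:**
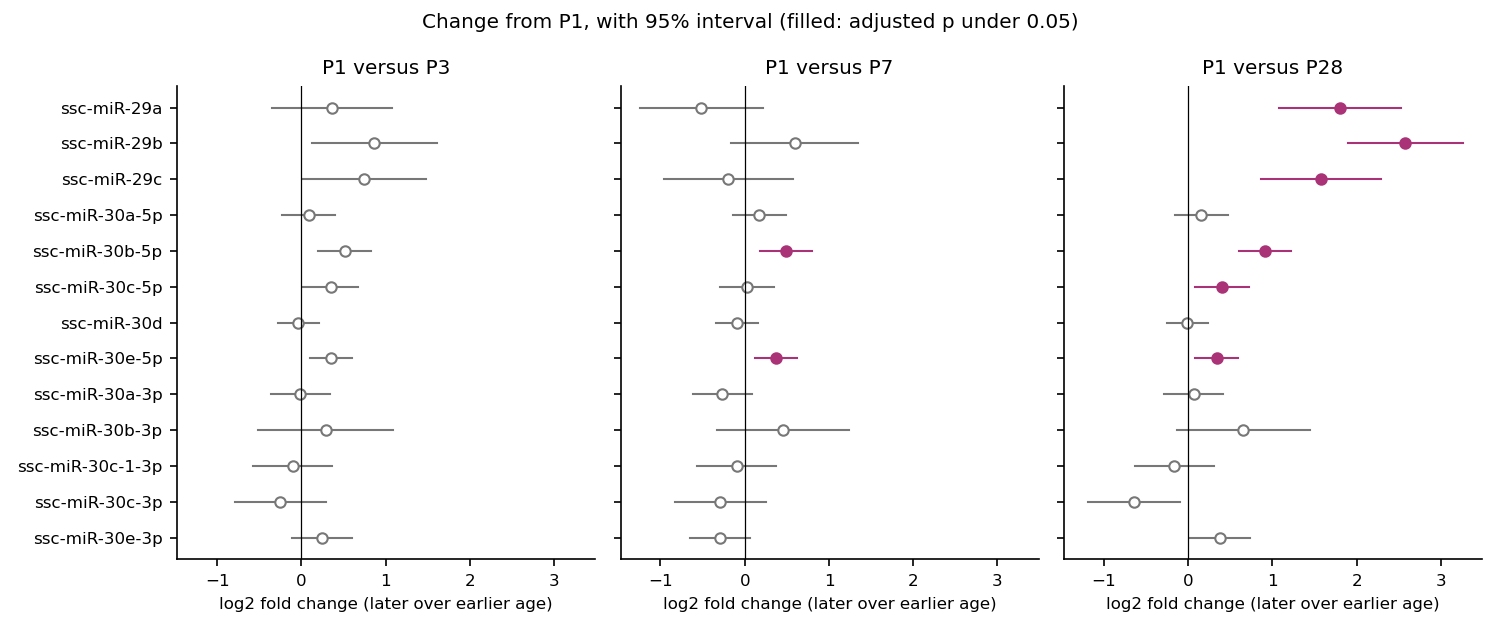
Log2 fold change (horizontal axes, later over earlier age) of the 13 members from P1 to P3, P7 and P28, with the 95% interval of the fit, filled where the adjusted p is under 0.05. The miR-29 members lie between 1.58 and 2.58 at P28 and no member is filled at P3.

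Members that share a seed did not all vary alike over the 12 libraries, which share pigs, ages and library totals. Within miR-29 the Pearson correlations of log2 CPM were 0.91 for 29a with 29c, 0.83 for 29a with 29b and 0.80 for 29b with 29c. Within the miR-30 5p strands they ranged from 0.02 for 30b-5p with 30d to 0.71 for 30e-5p with 30a-5p or with 30b-5p. The 3p strands of miR-30a and miR-30e had a correlation of 0.83, and miR-29b with miR-30b-5p also 0.83. Outside the families, the mature miRNAs most like the summed miR-29 level were miR-101 (r = 0.93), miR-26a (0.87), miR-1 (0.84), miR-582 (0.83) and miR-27a (0.83). Those most like the summed 5p strands of miR-30 were miR-582 (0.71), miR-652 (0.71), miR-19b (0.70), miR-145-5p (0.65) and miR-107 (0.63). Of the genes, HHATL (0.94), ENSSSCG00000050245 (0.94), ENSSSCG00000037137 (0.93), NFKBID (0.93) and POU2F2 (0.93) were most like miR-29, and ENSSSCG00000028092 (-0.95), LXN (-0.94) and CD109 (-0.93) least. For the miR-30 5p sum the genes were STING1 (0.89), ENSSSCG00000042026 (0.87), MEF2B (0.83), TYRO3 (0.82) and the miRNA gene ssc-mir-10384-2 (0.80), with ENSSSCG00000026045 (-0.90), TBCCD1 (-0.87) and KIF1B (-0.87) at the other end. These are the extremes of 5526 genes over 4 ages and are given as a description.

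The total RNA libraries of the same pigs held some transcripts around the miR-30 hairpins. miR-30c-1 and miR-30e lie within NFYC, which encodes a subunit of the transcription factor NF-Y, and NFYC itself measured between 335 and 459 CPM with a P1 to P28 log2 difference of 0.02 and a 95% interval from -0.23 to 0.27. The hairpins of mir-30a, mir-30c-1, mir-30c-2 and mir-30e were listed as genes with 3 to 36 counts per library, and the smallest adjusted p over all comparisons was 0.180, for mir-30e. From P1 to P28 the log2 difference of the mir-30e gene was -0.01, with a 95% interval from -0.97 to 0.95 that also holds the 0.34 of its mature 5p strand.

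FBN1 and COL5A1, both known as miR-29 targets, gave the matrix context of the same 12 hearts. FBN1 (chr1:123102009-123359649 in the gene table, whose positions follow assembly Sscrofa11.1) encodes fibrillin-1, the backbone of microfibrils. It stood at 3591, 3731 and 4002 CPM at P1, 1885, 2592 and 2778 CPM at P3, 4199, 3949 and 3629.9 CPM at P7, and 954, 1195 and 1060 CPM at P28. Every P28 pig lay below every younger pig, and every P3 pig below every P1 and P7 pig. Its log2 fold change was -1.82 ± 0.16 from P1 to P28 (adjusted p = 6.05e-05) and -1.88 ± 0.16 from P7 to P28 (adjusted p = 1.41e-04), beside 15.3% and 18.8% of the 5526 genes tested. From P1 to P3 it was -0.64 ± 0.15 and missed the threshold (adjusted p = 0.111), beside 0.0543% of genes called, though DESeq2 called it (-0.65, adjusted p = 0.00739). From P3 to P7 it was 0.70 ± 0.15 (adjusted p = 0.0379), beside 2.21%. The last call was lost without P1 pig 5 or 6, P3 pig 5, any one P7 pig or P28 pig 6 (adjusted p from 0.0537 to 0.119).

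COL5A1 (chr1:273971971-274085426 in the same table), a chain of the type V collagen that starts fibril assembly, measured 711, 810 and 695 CPM at P1, 505, 2246 and 844 CPM at P3, 763, 982 and 743 CPM at P7, and 363, 461 and 481 CPM at P28. The P28 pigs lay below all younger pigs. The log2 fold change was -0.76 ± 0.39 from P1 to P28 (adjusted p = 0.200) and -0.93 ± 0.39 from P7 to P28 (adjusted p = 0.114), neither called. The shared estimate of spread included pig 5 at P3, and without that library the same differences of -0.77 and -0.94 were called (adjusted p = 0.0146 and 0.00486). Over the 12 pigs the summed miR-29 level had a Pearson r of -0.89 with FBN1 and of -0.36 with COL5A1, and in pig 5 at P3 both COL5A1 and the miR-29 sum were the highest of their group. Without that library r was -0.92 with FBN1 and -0.88 with COL5A1. The miR-30 5p sum had r of -0.24 with FBN1 and 0.28 with COL5A1, and of -0.28 and -0.11 without that library.

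**Figure D4:**
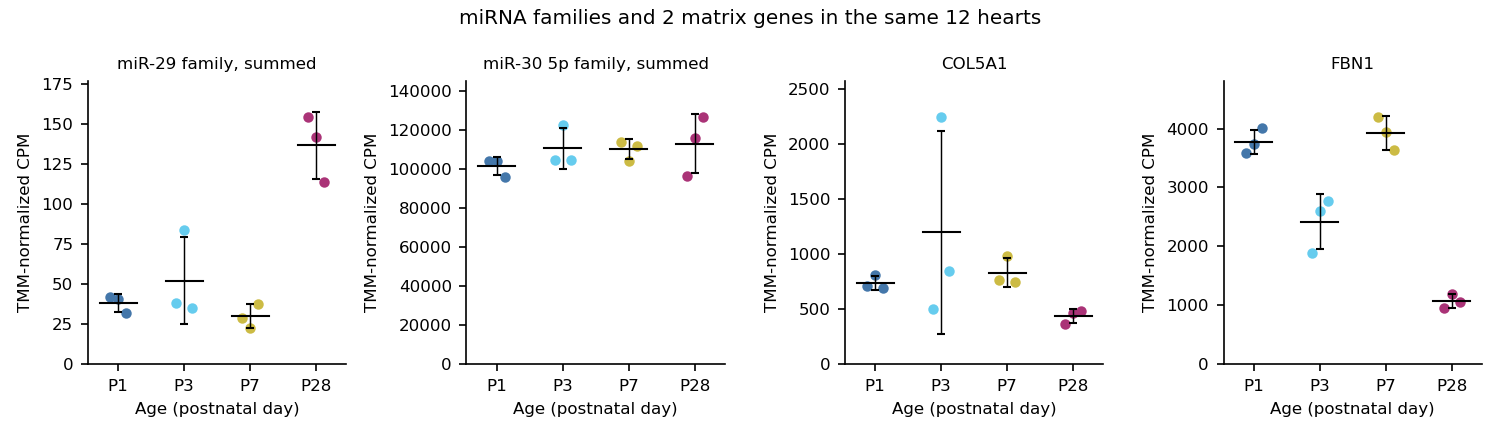
Summed CPM of the miR-29 family and of the miR-30 5p strands, and CPM of COL5A1 and FBN1 (vertical axes, from 0), by age in the same 12 pigs, with the mean and 1 SD of 3 pigs. At P28 the miR-29 sum is 137 CPM on average against 38.1 at P1, and FBN1 lies between 954 and 1195 CPM; the P3 pig at 2246 CPM sets the spread of COL5A1.

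The gene table held genes of chromosomes 1, 6 and 13 and of part of chromosome 2, where the copy used here breaks off, so the target lists could be read only in part, and most collagens that miR-29 is known for were not analysed here. Of 45 listed miR-29 targets 9 were tested. From P1 to P28 FBN1 was the only one called, lower, where 7.93% of all genes were called lower, 8 of the 9 estimates were below 0, and their median log2 fold change was -0.22 against 0.00 for all genes. Without pig 5 at P3, 4 of the 9 were called, all lower, in a fit that called 12.9% of all genes lower. From P7 to P28, 3 of the 9 were called, all lower, where 10.5% of all genes were called lower: FBN1, MMP2 (-1.14 ± 0.21, adjusted p = 0.00292), a gelatinase that cuts collagen, and COL15A1 (-0.93 ± 0.16, adjusted p = 0.00239), a basement membrane collagen. Without pig 5 at P3, 5 of the 9 were called between these ages, all lower, beside 14.4% of all genes. From P1 to P7, where 2.01% of all genes were called, COL15A1 rose (0.72 ± 0.16, adjusted p = 0.0441), with 607, 795 and 813 CPM at P1, 1244, 1255 and 1139 CPM at P7, and 494, 772 and 641 CPM at P28. That call was lost without any one P1 or P7 pig or P28 pig 6 (adjusted p from 0.0609 to 0.147). No miR-29 member was called between P1 and P7.

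Of 46 listed miR-30 targets 11 were tested between P1 and P28. NT5E, an ectoenzyme that makes adenosine, fell by 1.58 ± 0.26 on the log2 scale (adjusted p = 0.00210), from 21.1, 18.2 and 34.7 CPM at P1 to 9.71, 7.82 and 7.19 CPM at P28. CELSR3, a cadherin, was called lower at 1.65 CPM or less in every library (-1.98 ± 0.55, adjusted p = 0.0297), and the transcription factor PRDM1 was called higher (1.01 ± 0.31, adjusted p = 0.0433), beside 7.38% of all genes called higher. Both of these calls were lost without P1 pig 4 or without any one P28 pig, CELSR3 also without P1 pig 6 and PRDM1 without P1 pig 5 or any one P7 pig, and PRDM1 without TMM (adjusted p = 0.0677) and with the pig number as a replicate block (adjusted p = 0.0733). Across all genes 7.93% were called lower. The other 8 targets were not called. Among them CCN2 ranged from 34.4 to 317 CPM with a P1 to P28 difference of -0.02 and a 95% interval from -1.20 to 1.15. The median of the 11 was -0.02, against 0.00 for all genes.

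A further list of 26 tested matrix and TGF-beta genes, which holds COL5A1 too, had 11 called lower and none higher from P1 to P28, with a median log2 fold change of -0.46, where 7.93% of all genes were called lower. The named genes of this list were COL8A1 (-2.45 ± 0.29, adjusted p = 3.16e-04), a short-chain collagen of vessel walls, COL12A1 (-1.51 ± 0.20, adjusted p = 6.23e-04), which binds collagen fibrils, ADAMTS2 (-1.23 ± 0.14, adjusted p = 3.16e-04), which trims procollagen, the lysyl hydroxylases PLOD1 (-1.18 ± 0.14, adjusted p = 3.16e-04) and PLOD2 (-0.98 ± 0.15, adjusted p = 0.00153), and the proteoglycan VCAN (-1.04 ± 0.17, adjusted p = 0.00232). COL8A1 went from 214, 449 and 408 CPM at P1 to 72.7, 67.6 and 55.9 CPM at P28. The basement membrane genes HSPG2, LAMB2 and NID2 were not called, with HSPG2 at 0.04 (95% interval -0.60 to 0.68), LAMB2 at 0.19 (-0.15 to 0.53) and NID2 at 0.51 (-0.05 to 1.07). From P7 to P28 the list had 11 called lower and none higher, with a median of -0.51, beside 10.5% of all genes called lower. Without P28 pig 5 there were 6 called lower, beside 6.91% of all genes, and without P28 pig 6 there were 7, beside 6.82%.

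**Figure D5:**
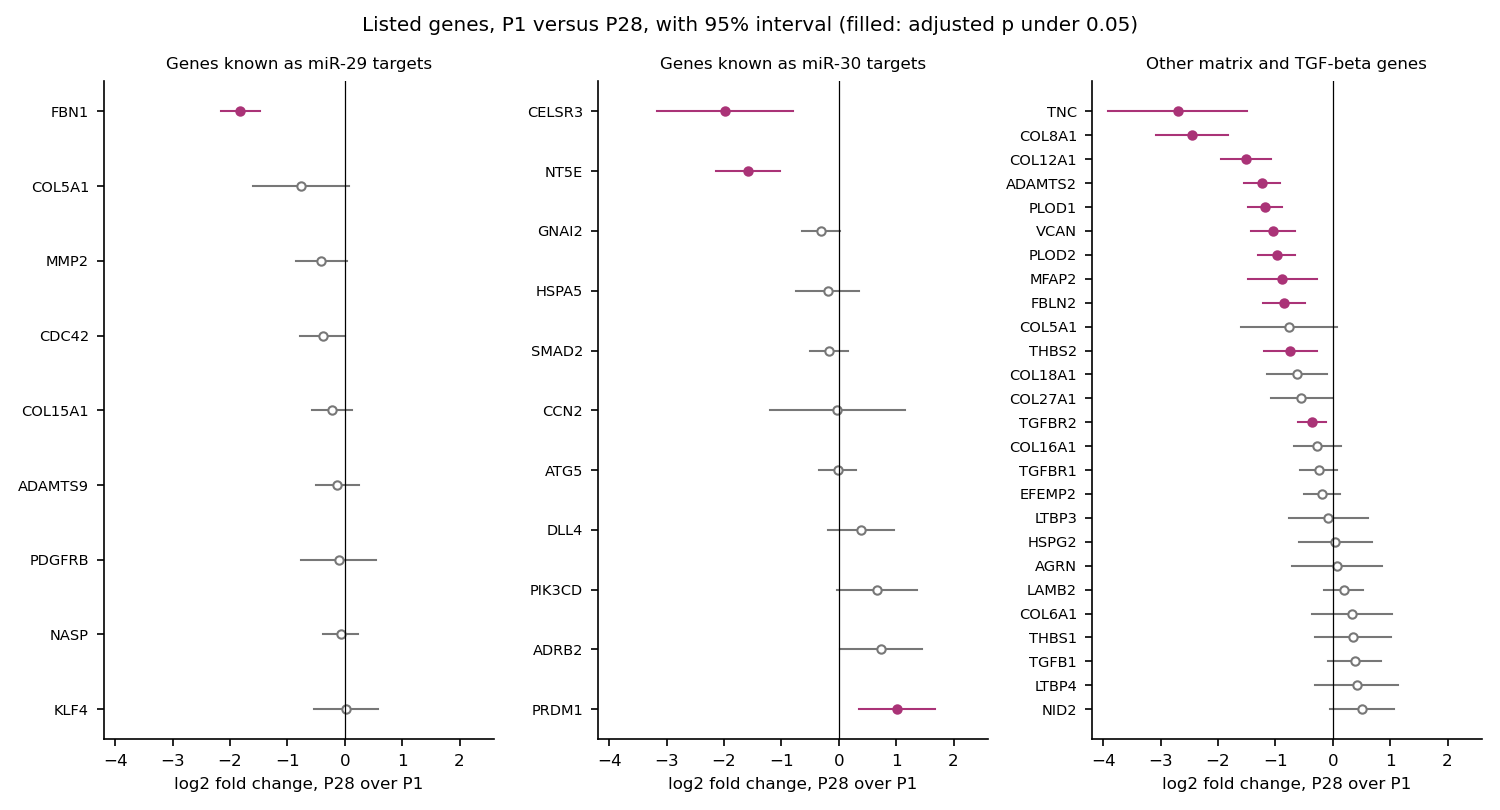
Log2 fold change from P1 to P28 (horizontal axes) with 95% intervals for the 9 tested miR-29 targets, the 11 tested miR-30 targets and the 26 tested matrix and TGF-beta genes, filled where the adjusted p is under 0.05. FBN1 is the only filled gene of the first list, and 11 genes of the third are filled, all below 0.

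Some markers of cell types moved with age as well, and others overlapped between P1 and P28. miRNAs known from cardiomyocytes took 44.6 to 48.1% of counts at P28 against 38.4 to 42.4% at P1, and those known from fibroblasts, miR-21, miR-199 and miR-214, took 3.23 to 4.27% at P28 against 4.57 to 5.71% at P1, both without overlap. These are shares of plain library totals, where the median log2 change of all miRNAs from P1 to P28 was -0.23. A single miRNA made up most of each sum. miR-1 averaged 37.6% at P1 and 43.3% at P28, and miR-21 averaged 4.56% and 3.24%. Those of smooth muscle, miR-143 and miR-145, took 10.9 to 12.7% at P28 and 13.5 to 16.4% at P1, and those of red cells 0.349 to 0.387% and 0.117 to 0.181%. In the smooth muscle sum miR-143-3p averaged 15.1% at P1 and 11.5% at P28, whereas miR-145-5p averaged 1956 and 2354 CPM. The only smooth muscle gene tested, NOTCH3, overlapped between P1 (155 to 197 CPM) and P28 (87.1 to 204 CPM). The endothelial miR-126 also overlapped, at 2.06 to 2.74% at P1 and 1.79 to 2.18% at P28. Of 17 fibroblast marker genes the gene table held 2. TCF21, a transcription factor of cardiac fibroblasts, fell by 1.05 ± 0.14 on the log2 scale from P1 to P28 (adjusted p = 6.78e-04), while GSN differed by 0.06 (95% interval -0.36 to 0.48). The 5 leukocyte genes in the table summed to 691 to 1125 CPM at P28 against 443 to 629 at P1, with 1 called higher beside 7.38% of all genes, and the leukocyte miRNAs miR-142, miR-150 and miR-155 took 0.0215 to 0.0341% against 0.0114 to 0.0141%. The 8 cardiomyocyte genes summed to 83811 to 98558 CPM at P28 and 86175 to 99016 CPM at P1, and the 5 endothelial genes to 726 to 768 and 728 to 941 CPM. Within these sums single genes moved apart. ACTC1, cardiac actin, was called lower at P28 (-0.60, adjusted p = 0.0340), MYBPC3, a thick filament protein, was called higher (0.57, adjusted p = 0.0158), and TEK, the angiopoietin receptor, was called higher (0.53, adjusted p = 0.0356) while the other 4 endothelial estimates were below 0. No marker gene in the table was at 0 in all libraries. The part of these shifts in the miR-29, FBN1 and matrix results was not tested.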

How the data were processed

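Small RNA and rRNA-depleted total RNA libraries of 12 pig hearts were used. Per the labels and methods, fragments were made with a NEBNext small RNA kit, and the deposited small RNA table holds expected counts per mature miRNA and precursor, in which the authors' counting split reads shared by several precursors evenly. Of values under 200 with a pair of precursors 49.0% ended in 0.5 of a count. The authors' gene table holds deposited counts, and the copy used here holds chromosomes 1, 6 and 13 and part of chromosome 2, where it breaks off in a line without counts that was left out. The aligner and counter of both tables are not given in the sources used here. The submitters' processing notes name STAR 2.7.9a, MultiQC 1.11 and the build Sscrofa10.2, which the methods state for the circRNA alignment. The gene table's positions follow Sscrofa11.1 instead, since 4350 of 4355 genes matched by symbol (99.9%) overlapped their RefSeq position there. The circRNA tables were not used.

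Entries were summed per mature miRNA, rounded, kept at 10 or more counts in at least 3 libraries, and tested with edgeR 4.0.16 (quasi-likelihood, TMM, all 4 ages in one fit, Benjamini-Hochberg over all features) in R 4.3.3. DESeq2 1.42.0 and limma 3.58.1 (voom) served as alternatives, with other scalings and filters, a replicate block and each library left out. Scripts were tested on simulated counts. Correlations used log2 CPM with a prior count of 2. The intervals are at 95% from the fit. The labels number the pigs 1 to 3 and the columns 4 to 6, so columns were assigned to ages only. Nothing shows litters, and p-values measure the spread between these pigs.

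Named genes were all members, COL5A1, FBN1, NFYC, the 6 genes of each list with the lowest p from P1 to P28, up to 4 with the highest mean count, the 2 highest genes of each marker list, and the miRNAs and genes most and least like each summed family. The members and lists were chosen with earlier results of these data known. Family sums and ratios were given without a test. No miRNA sequence was used here, and RefSeq gene names and neighbours are from assembly Sscrofa11.1.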

Additional observations from a re-analysis of the deposited data

How the results depend on the processing

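Calls of the fit over all 4 ages were followed for the members, FBN1, COL5A1, TCF21 and the named target and matrix genes with a call. Other marker genes, such as ACTC1, MYBPC3 and TEK, were not followed. Of the 38 calls followed, 26 were kept under every alternative that tested them. These included miR-29a, miR-29b and miR-29c in both comparisons with P28, miR-30b-5p from P1 to P28, and FBN1 in both comparisons with P28. The other 12 were lost under at least 1. Counts of called members moved mostly in the comparisons with few calls. For most of these settings the share of all miRNAs called was not worked out, so the counts cannot be set against it. From P1 to P3 the count was 2 on plain library totals, 1 with DESeq2, 1 with the replicate block, 3 under the rule of unadjusted p with a log2 change over 0.5, and 1 with precursor entries kept apart. From P1 to P7 it was 1 with DESeq2, 0 under the unadjusted rule and 1 with entries apart. From P3 to P7 it was 0 on plain totals, with the block, with no filter, with only 2 ages in the fit or with the largest entry, 2 with DESeq2 or entries apart, and 3 under the unadjusted rule. From P7 to P28 it was 3 under the stricter filter, which left 10 members. Leaving out 1 library gave 0 to 1 members from P1 to P3, 0 to 2 from P1 to P7, 4 to 7 from P1 to P28, 0 to 4 from P3 to P7 (4 without P3 pig 6), 3 to 6 from P7 to P28 (3 without P28 pig 6) and 4 to 8 for any age. For FBN1 and COL5A1 together, DESeq2 called 1 from P1 to P3 and 2 for any age, the unadjusted rule 1 from P1 to P3 and 2 from P7 to P28, no filter 2 for any age, and a fit of only 2 ages 2 from P1 to P28, 0 from P3 to P7 and 2 from P7 to P28. Left-out libraries gave 0 from P1 to P3 and from P1 to P7, 0 to 1 from P3 to P7, and 1 to 2 from P1 to P28, from P7 to P28 and for any age. The unadjusted rule has no fold over all ages and gave no value there. Results for the gene lists were added after seeing the data. Of the miR-29 targets 4 were called from P1 to P28 and 6 from P7 to P28 with only 2 ages, where 21.2% and 30.4% of all genes were called, and 5 from P7 to P28 on plain totals, beside 17.8%. Of the miR-30 targets 2 were called from P7 to P28 on plain totals, with DESeq2, with the stricter filter or with only 2 ages, beside 17.8%, 24.5%, 20.6% and 30.4% of all genes. Left-out libraries gave 1 to 4 and 3 to 5 miR-29 targets, 1 to 4 and 1 to 2 miR-30 targets, and 8 to 14 and 6 to 15 matrix genes, from P1 to P28 and from P7 to P28. The share of all genes called lower moved too. From P1 to P28 it was 7.93% with all libraries and 12.9% without P3 pig 5. From P7 to P28 it was 10.5% with all libraries, 14.4% without P3 pig 5, 6.91% without P28 pig 5 and 6.82% without P28 pig 6. For the other left-out libraries it was not worked out. Without P3 pig 5, also tried after seeing the data, 2 members had an unadjusted p under 0.05 from P1 to P3, 0 passed the unadjusted rule with a fold from P1 to P3 or P3 to P7, and r with the miR-29 sum was -0.88 for COL5A1 and -0.92 for FBN1, and with the miR-30 5p sum -0.11 and -0.28. The cause of these changes was not tested.

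One result changed sign with a call: on plain totals miR-30d was called lower from P7 to P28 (-0.29), as were miR-30a-5p, miR-30e-5p and miR-30c-3p, where the median miRNA moved by -0.38. With miR-1 taken out of the totals the miR-29 sums were 61.0, 83.9, 51.9 and 209 CPM at P1, P3, P7 and P28, the miR-30 5p sums 161829, 179690.0, 192124 and 171916 CPM, and the 3p sums 2957, 3439, 2666 and 3481 CPM, higher throughout because the divisor is smaller. On plain totals, a setting chosen after seeing the data, the 5p sum was 121966 CPM at P7 and 97145 CPM at P28, and the 3p sum 1969 CPM at P28. With 1 pig left out the miR-29 means ranged from 36.2 to 41.2, 36.4 to 60.8, 25.8 to 33.3 and 128 to 148 CPM, the 5p means from 99933 to 104093, 104595 to 113684, 108097 to 112978 and 106174 to 121226 CPM, and the 3p means from 1791 to 1944, 2006 to 2194, 1394 to 1678 and 2141 to 2379 CPM. The 5p over 3p ratios ranged from 77.5 to 89.8, 84.0 to 92.9, 104 to 119 and 83.4 to 93.7 for miR-30a, from 160.1 to 190.4, 195 to 288, 168 to 213 and 191 to 274 for miR-30b, and from 17.1 to 19.3, 18.8 to 20.4, 26.4 to 32.3 and 16.6 to 18.8 for miR-30e.

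The pig numbers recur at each age but mark different animals. Deviations of same-numbered libraries correlated between -0.27 and 0.20 for miRNAs, with 2 of 15 pairs over 0.1, and between -0.19 and 0.33 for genes, with 5 of 15 over 0.1. From P1 to P28 all 3 gene pairs were over 0.1 (0.33, 0.14 and 0.16), a hint from the data and not from the design, and there the block ended the call of PRDM1 (adjusted p = 0.0733) and left 1 miR-29 target, 2 miR-30 targets and 10 matrix genes called. For miRNAs it ended those of miR-30c-5p and miR-30e-5p from P1 to P28 (adjusted p = 0.0620 and 0.0527) and miR-30e-3p from P3 to P7 (adjusted p = 0.0558), and called miR-30b-5p from P1 to P3 (adjusted p = 0.0347). The fit with the replicate block called 1, 2, 4, 0 and 5 members from P1 to P3, P1 to P7, P1 to P28, P3 to P7 and P7 to P28, and 5 for any age. The shares of all genes and all miRNAs called with the block were not worked out, so its counts stand without a background. Depth limits miR-29b, miR-29c and miR-30b-3p most, with as few as 6, 15 and 20 counts in a library.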
